A study of Arabidopsis thaliana with 11 samples.

Results

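The *trm4b-2* mutant was compared with the wild type in mixed flower buds of *Arabidopsis thaliana*, as read by RNA bisulfite sequencing (RBS-seq) of gel-purified transfer RNA. Bisulfite turns cytosine into a base read as T but leaves 5-methylcytosine (m5C) as C, so the share of reads with C at a cytosine is its methylation level. The members were all listed m5C sites with a number in both bud columns. These were 36 of the 39 listed sites, in 21 tRNAs that stand for 241 nuclear loci. The *trm4b-2* plants were a homozygous T-DNA insertion line in *TRM4B* (AT2G22400), a single line, and wild type was the Columbia ecotype. Each genotype had 1 library from mixed buds (experiment 2), with no age, stage or other treatment given. The rest of the series came from seedlings 10 days after germination (experiment 1). It held 1 library each of *trm4b-1* (the first allele), *trdmt1 trm4b* (which carries *trm4b-1*), *trdmt1*, *trm4a*, *nsun5-2* and *nop2a-2*, and the authors' mean of 3 wild type libraries. The last 4 of these mutants are used only to tell at which sites each library had a number.

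With 1 library a side and no replicate, no difference below could be set against replicate error and none was tested. Reads per site were not given, and the authors required at least 5, so the precision of each percentage was unknown. Messenger RNA was not measured here, so the loss of *TRM4B* transcript was not checked in these libraries. Buds hold several tissues, and the label was not checked against marker genes for the same reason.

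TRM4B belongs to the TRM4/NSUN2 family of RNA methyltransferases, which in yeast and animals place m5C where the variable loop of a tRNA meets the T stem. Position 48 is the last base of the variable region, and positions 49 and 50 open the T stem. C38, in the anticodon loop, is methylated by TRDMT1 (DNMT2), an RNA methyltransferase of another class, and C72 lies near the 3′ end in the acceptor stem. m5C at these places is known for stabilising the fold of tRNA and protecting it from cleavage.

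The 5 tRNAs with 3 or more measured sites show where these positions lie. They are printed as the authors' consensus sequences, as DNA letters 5′ to 3′, with the listed m5C sites in capitals. In the aspartate tRNA the capitals stand for C38, then C48, C49 and C50 together, then C72.
Asp(GTC): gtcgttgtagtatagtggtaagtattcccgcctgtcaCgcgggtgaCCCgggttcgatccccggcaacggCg
Gly(GCC): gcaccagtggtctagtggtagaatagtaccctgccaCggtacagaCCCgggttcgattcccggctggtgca
Gly(CCC): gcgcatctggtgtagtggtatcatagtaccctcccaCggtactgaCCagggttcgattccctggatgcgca
Gly(TCC): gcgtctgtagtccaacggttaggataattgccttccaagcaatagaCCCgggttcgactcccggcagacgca
Glu(TTC): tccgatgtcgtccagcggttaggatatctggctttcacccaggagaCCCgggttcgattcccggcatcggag
Gly(GCC) and Gly(CCC) carry C38, while Gly(TCC) and Glu(TTC) have no listed site in the anticodon loop. Gly(CCC) has A at position 50 and so has no C50.

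These consensus sequences each stand for several nuclear tRNA genes on TAIR10. Asp(GTC) stood for 25 loci, Gly(GCC) for 22, Gly(TCC) for 12, Glu(TTC) for 11 and Gly(CCC) for 5. The first locus listed for Gly(TCC) was AT1G08240, on chromosome 1 from 2588525 to 2588596, and that of Glu(TTC) was AT1G09110, on chromosome 1 from 2939417 to 2939488. Both are annotated as tRNA genes, as were all loci of these 5 tRNAs except 1 of the 11 of Glu(TTC).

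Over the 36 sites, levels in *trm4b-2* buds ranged from 0% to 95% with a median of 24.5%, against 17% to 97% with a median of 91% in wild type buds. The level was lower in *trm4b-2* at 32 sites and higher at 4, and the median difference was -50 percentage points. The authors listed these sites from wild type plants, where they required at least 20% methylation. A cytosine low in wild type and high in *trm4b-2* could hardly be a member, so these counts and those of the calls lean towards a fall. Sites with at least 20% in wild type were given 1 of 3 calls: lost, where *trm4b-2* read no more than 5%; reduced, where it read more than 5% but stood at least 20 points below wild type; and retained in all other cases. Of the 35 sites that could be called, 22 were lost or reduced (62.9%), of which 15 were lost (42.9%) and 7 reduced (20%), and 13 were retained.

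The share kept, which is the *trm4b-2* level as a percent of the wild type level at the same site, was spread over 3 ranges. At 16 sites it lay between 0% and 5.71%, at 11 sites between 12.1% and 86.3%, and at 9 sites between 96.7% and 111%. These ranges were drawn after the values were seen. No site lay between 86.3% and 96.7%, and none between 5.71% and 12.1%. Every C50 site was in the lowest range and every C38 and C72 site in the highest, while C48 and C49 had sites in all 3.

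**Figure D1:**
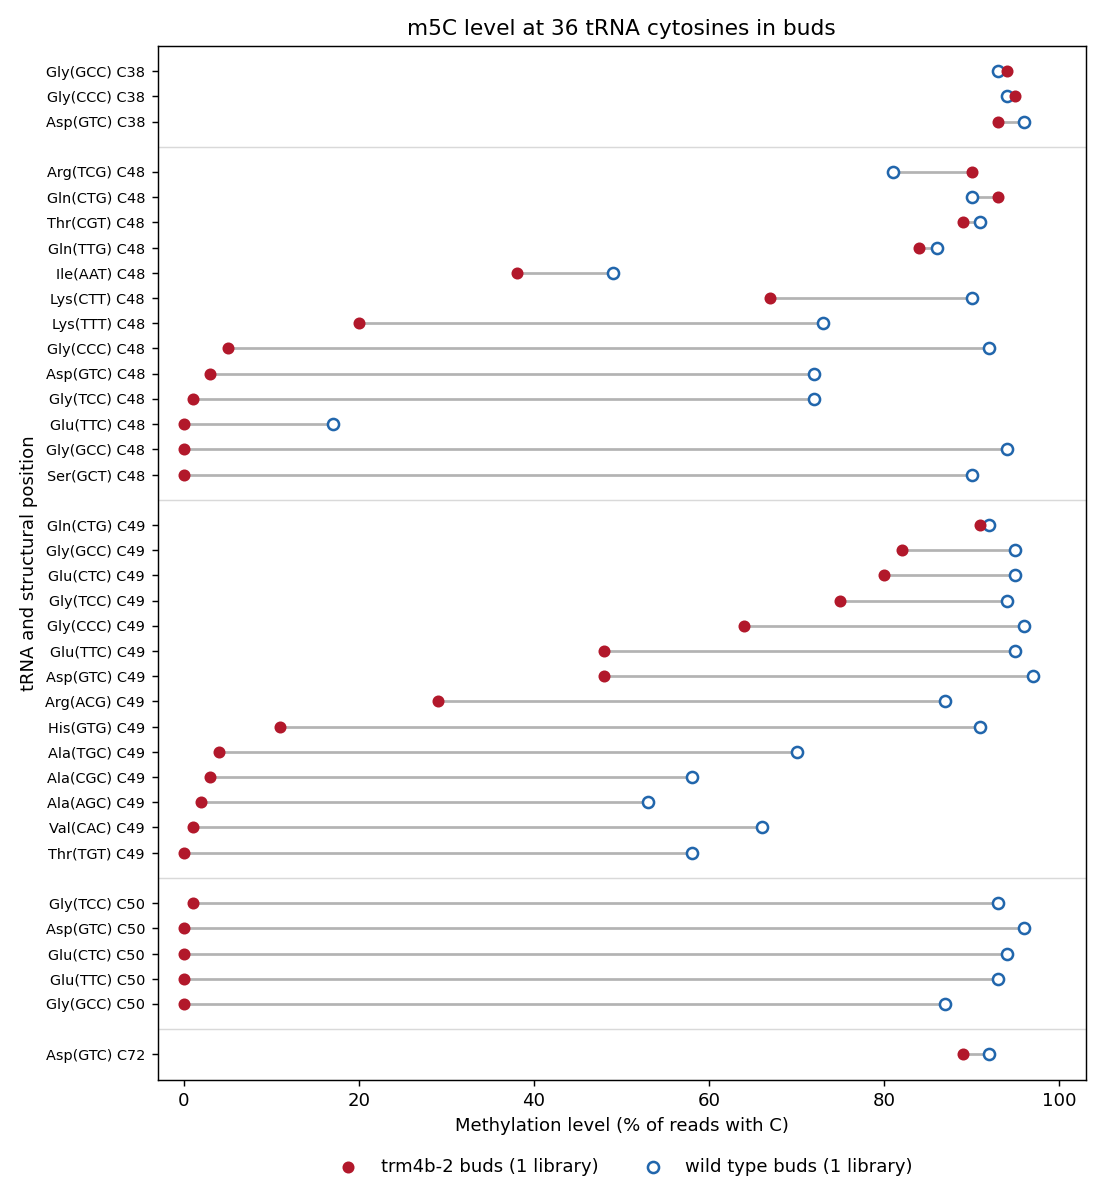
Methylation level (percent of reads with C, horizontal axis) at the 36 tRNA cytosines measured in buds, 1 row per site, grouped by structural position and ordered by share kept. Filled red points are *trm4b-2* and open blue points wild type (1 library each, no error bars): the 5 C50 sites stood at 0% or 1% in *trm4b-2* against 87% to 96% in wild type, while the C38 and C72 sites stood within 3 points of each other.

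C50 was lost in all 5 tRNAs that carry it. C50 of Asp(GTC) was at 0% in *trm4b-2* against 96% in wild type. In the glutamate tRNAs it was at 0% against 94% in Glu(CTC) and at 0% against 93% in Glu(TTC), and in the glycine tRNAs at 0% against 87% in Gly(GCC) and at 1% against 93% in Gly(TCC). The median share kept was 0% at C50, beside 30.4% over all 36 sites. The 5 tRNAs with a C50 site share the stretch ACCCGGG, which runs from the base before C48 to the end of the 5′ strand of the T stem and can be seen in the sequences printed above. Of the 58 consensus sequences of nuclear tRNAs alone, 5 (8.62%) have this stretch at that place, and these are the 5 with a C50 site. The stretch was taken from these 5 tRNAs, so only its absence at that place in the rest could have come out otherwise. Anywhere in the sequence and on either strand, it or its reverse complement CCCGGGT, with which it overlaps, occurs in 8 of the 58 (13.8%). Another 6 of the 24 tRNAs with any listed site have C at position 50 without a listed site there, Gln(CTG) and Val(CAC) among them, and no level was given for these cytosines.

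C38 and C72 were retained in every tRNA that carries them as listed sites. C38 was at 93% in *trm4b-2* against 96% in wild type in Asp(GTC). The 2 glycine tRNAs were each 1 point higher, with Gly(CCC) at 95% against 94% and Gly(GCC) at 94% against 93%. C72 of Asp(GTC) was at 89% in *trm4b-2* against 92% in wild type. All 4 sites kept 96.7% to 101% of the wild type level.

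C48 was mixed. Of its 12 callable sites 7 were lost or reduced (58.3%), near the 62.9% over all sites, and the share kept ran over its 13 sites from 0% to 111%, with a median of 27.4%. That median describes few sites, since values lay at either end. The median difference was -23 points over all 13 sites and -38 points without Glu(TTC) C48, which could not be called because wild type buds were at 17%. It was -70 points over the 8 sites with a number in every library.

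The C48 sites that were lost belonged to aspartate and glycine tRNAs and to Ser(GCT). C48 was at 3% in *trm4b-2* against 72% in wild type in Asp(GTC), at 1% against 72% in Gly(TCC) and at 5% against 92% in Gly(CCC). Gly(GCC) was at 0% against 94% and Ser(GCT) at 0% against 90%. Ser(GCT), a serine tRNA with a long variable arm, was the only tRNA of that type with both bud values. C48 of Leu(TAA), Ser(CGA) and Ser(TGA), the other long-arm tRNAs listed, was at 90%, 63% and 86% in wild type buds and had no value in *trm4b-2*. Each of these 3 sites was at 0% in *trdmt1 trm4b* seedlings. Glu(TTC) C48, at 0% in *trm4b-2*, was the lowest wild type site.

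The C48 sites that were retained lay in arginine, glutamine, threonine and isoleucine tRNAs. Arg(TCG), a tRNA that reads an arginine codon, had the largest increase of any site, with 90% in *trm4b-2* against 81% in wild type. Gln(CTG) was at 93% against 90%, Gln(TTG) at 84% against 86% and Thr(CGT) at 89% against 91%. These 4 sites kept 97.7% to 111%. Ile(AAT) C48, low already in wild type, was at 38% against 49% and kept 77.6%. It was called reduced when a fall of 10 points was enough.

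The lysine tRNAs lay between. Lys(TTT) C48 was at 20% in *trm4b-2* against 73% in wild type, a share of 27.4%. Lys(CTT) C48 was at 67% against 90%, a share of 74.4%. Its fall of 23 points was the smallest among the reduced sites, and Gly(TCC) C49, with a difference of -19 points, was the nearest site on the other side of the threshold. Lys(CTT) C48 was no longer called reduced when a fall of 30 points was required. In seedlings this site stood at 54% in *trm4b-1* but at 99% in *trdmt1 trm4b*, which carries the same allele, against 88% in wild type. The seedling libraries thus lay on either side of wild type.

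The stretches around C48 were compared for these groups. Each line gives the 5 bases before the T stem and the 5 bases of its 5′ strand, with listed sites in capitals, and the first 5 lines are tRNAs with C48 retained.
Arg(TCG): aggtCgtggg
Thr(CGT): aggcCgcgag
Ile(AAT): aggtCgcagg
Gln(TTG): gcgaCctggg
Gln(CTG): gtaaCCcgag
Lys(CTT): tggtCgtggg
Lys(TTT): tggcCgtggg
Ser(GCT): cccgCgagag
Gly(GCC): cagaCCCggg
Gly(CCC): ctgaCCaggg
In 6 of the 13 tRNAs C48 was followed by G, and in the other 7 by C. The 5 tRNAs with G after C48 other than Ser(GCT) kept 27.4% to 111%, and none of them was lost. The 5 with C after C48 other than the glutamine tRNAs kept 0% to 5.43%. The glutamine tRNAs had the same A before C48 and C after it as the aspartate, glutamate and glycine tRNAs, and kept 97.7% and 103%. The letters next to C48 alone did not sort the sites.

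The same division followed the length of the variable region, counted from the end of the anticodon stem through position 48. C48 in a region of 5 bases (Arg(TCG), Ile(AAT), Lys(CTT), Lys(TTT), Thr(CGT)) kept a median of 77.6%, with 0 of 5 sites lost. C48 in a region of 4 bases kept a median of 4.17%, with 4 of 6 callable sites lost and the 2 glutamine sites retained. At C49 the order was the reverse. C49 after a region of 4 bases kept 12.1% to 98.9% with a median of 73.2% (8 sites, 0 lost), and after 5 bases 0% to 33.3% with a median of 4.47% (6 sites, 5 lost). The ranges at C49 overlapped through His(GTG), at 12.1%, and Arg(ACG), at 33.3%.

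**Figure D2:**
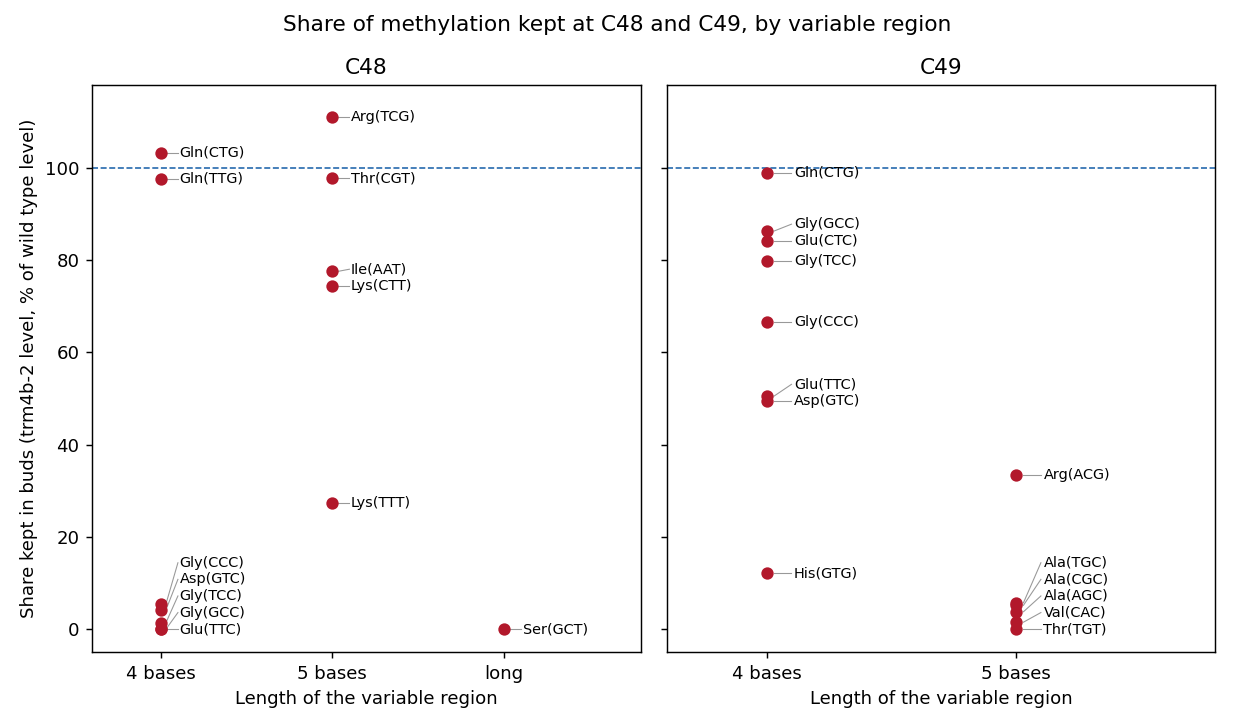
Share kept in buds (*trm4b-2* level as a percent of wild type level, vertical axis) at C48 (left) and C49 (right), by the length of the variable region of the tRNA. Each point is 1 site with 1 library a side and the dashed line marks no difference from wild type: at C48 the 5 tRNAs with 5 bases kept 27.4% to 111%, and at C49 the 6 tRNAs with 5 bases kept 0% to 33.3%.

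Length of the variable region, amino acid and the bases beside the site moved together, and so did the wild type level. Wild type buds stood at 91% to 97% at the C49 sites after 4 bases and at 53% to 87% at those after 5 bases. The part of each in the share kept was not tested. In seedlings of *trm4b-1*, C49 kept 11% to 102% after 4 bases (8 sites) and 0% to 16.7% after 5 bases (4 sites). C48 in regions of 5 bases had 2 values there, 61.4% and 101%. In *trdmt1 trm4b* seedlings C48 in regions of 5 bases kept 33.3% to 112.5% (4 sites). C49 kept 6.59% to 89.8% after 4 bases (8 sites) and 0% to 39.7% after 5 bases (3 sites) in that double mutant.

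C49 showed the widest spread of intermediate levels. Of 14 sites, 5 were lost, 5 reduced and 4 retained. The share lost or reduced was 71.4%, beside 62.9% over all sites, and nothing was read from the difference. Levels in *trm4b-2* ran from 0% to 91% against 53% to 97% in wild type. The median difference was -50 points and the median share kept 41.4%. Over the 8 sites with a number in every library these were -39.5 points and 58.6%. Every C49 site faced a G across the T stem.

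In 7 tRNAs C49 was the only listed site, and these kept the least. Ala(AGC) was at 2% in *trm4b-2* against 53% in wild type, Ala(CGC) at 3% against 58% and Ala(TGC) at 4% against 70%. The 3 alanine tRNAs, which differ in the first base of the anticodon and at some other positions, thus kept 3.77% to 5.71%. Val(CAC) was at 1% against 66% and Thr(TGT) at 0% against 58%. His(GTG), at 11% against 91%, had the largest fall of any reduced site, and Arg(ACG) was at 29% against 87%. Their wild type levels, 53% to 91%, lay below the 92% to 97% of C49 in tRNAs with several sites.

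The corresponding stretches are shown for the C49 sites, first the tRNAs with C49 alone and then Glu(CTC), which has C49 and C50.
Ala(AGC): aggtaCgggg
Val(CAC): aggtcCccgg
Thr(TGT): aggtcCgtag
Arg(ACG): agattCtggg
His(GTG): gagacCtggg
Glu(CTC): gagacCCggg
The 4 sites with G after C49, in the alanine tRNAs and Thr(TGT), kept 0% to 5.71%. The 2 with T, in Arg(ACG) and His(GTG), kept 33.3% and 12.1%. The 7 with C kept 1.52% to 98.9%, and all but Val(CAC) kept 49.5% or more. Gly(CCC), with A after C49, kept 66.7%. Val(CAC), Thr(TGT), His(GTG) and Glu(CTC) have C at position 48 with no listed site there.

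In the 7 tRNAs with several sites, no C49 was lost. Asp(GTC) was at 48% in *trm4b-2* against 97% in wild type and Glu(TTC) at 48% against 95%. Among the glycine tRNAs, Gly(CCC) was at 64% against 96%, Gly(TCC) at 75% against 94% and Gly(GCC) at 82% against 95%. Glu(CTC) was at 80% against 95%. Each of these 6 tRNAs had its other T stem or variable region sites at 5% or less. Gln(CTG) was the exception, with C49 at 91% against 92% and C48 retained as well. C49 was thus the only position between 48 and 50 at which these 6 tRNAs kept more than 5.43%.

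The 2 glutamate tRNAs differed at C49 although their stretch there is alike. Glu(CTC) kept 84.2% and Glu(TTC) 50.5%, with wild type at 95% in each. The 5 bases before the T stem and the 5 bases that open it are the same letters in both, as the printed sequences show, and C50 was at 0% in each. Asp(GTC), Gly(GCC) and Gly(TCC) share the last 7 of these letters and kept 49.5%, 86.3% and 79.8% at C49.

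Summing the levels over the listed sites of a tRNA gives the mean number of these m5C per molecule. Asp(GTC), with 5 sites, had 2.33 in *trm4b-2* against 4.53 in wild type. Gly(GCC) had 1.76 against 3.69 and Gly(CCC) 1.64 against 2.82. These 3 tRNAs counted C38, at 93% to 95% in *trm4b-2*, in what stayed. Without a C38 site, Gly(TCC) had 0.77 against 2.59, Glu(CTC) 0.8 against 1.89 and Glu(TTC) 0.48 against 2.05, and nearly all of what stayed was at C49. Gln(CTG) had 1.84 against 1.82. Among these 7 tRNAs with several sites, the share of m5C kept ran from 23.4% in Glu(TTC) to 101% in Gln(CTG). Added over 1 molecule of each of the 21 tRNAs, the sum was 14.0 in *trm4b-2* against 29.82 in wild type, a share of 46.9%. At C48, C49 and C50 alone it was 10.29 against 26.07, a share of 39.5%. tRNA abundance was not taken into account.

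**Figure D3:**
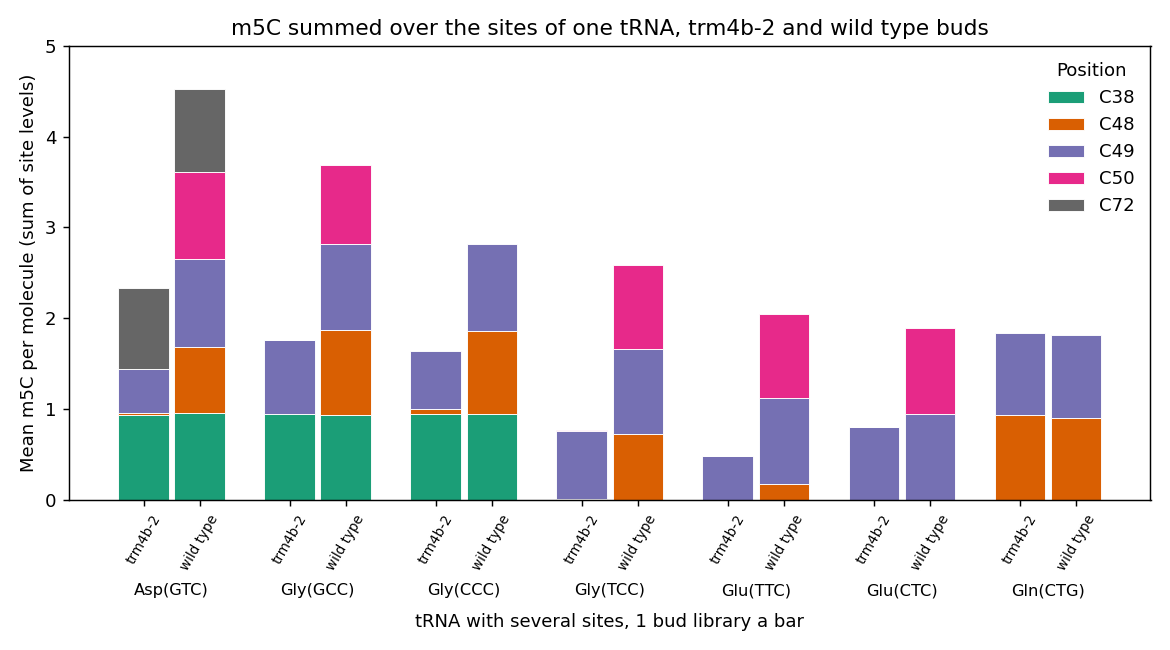
Mean m5C per molecule (sum of site levels, vertical axis) in the 7 tRNAs with several sites, with *trm4b-2* buds left and wild type buds right in each pair of bars and colours for structural position. Each bar is 1 library with no error: Asp(GTC) stood at 2.33 in *trm4b-2* against 4.53 in wild type, and Gln(CTG) at 1.84 against 1.82.

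By amino acid, the alanine tRNAs had 3 of 3 callable sites lost or reduced, lysine 2 of 2, glutamate 3 of 4, glycine 6 of 10 and aspartate 3 of 5. Arginine and threonine tRNAs had 1 of 2 each. Histidine, serine and valine tRNAs had 1 callable site each, lost in Ser(GCT) and Val(CAC) and reduced in His(GTG). Glutamine tRNAs had 0 of 3 and the isoleucine tRNA 0 of 1. The share over all callable sites was 62.9%, and the families hold too few sites for more than these counts. The retained sites of glycine and aspartate tRNAs were at C38, C49 and C72.

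Of the amino acid families, glutamine was the only one with every measured site within 3 points of wild type in buds. In *trm4b-1* seedlings Gln(TTG) C48 was called reduced, at 67% against 92% in wild type, and Gln(CTG) C48 was at 71% against 86%. In *trdmt1 trm4b* seedlings these sites were at 82% and 88%. Gln(CTG) C49 was at 100% in *trm4b-1* against 98% in wild type seedlings. The consensus of Gln(CTG) stood for 9 loci, the first being AT2G16240 on chromosome 2 from 7039094 to 7039165. That of Gln(TTG) stood for 7, the first being AT1G21420 on chromosome 1 from 7499733 to 7499804. Both are annotated as tRNA genes. Gln(CTG) also has C at position 50 and Gln(TTG) at position 49, with no site listed there.

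A set of 5 sites had values in buds but none in *trm4b-1* seedlings, so *trm4b-2* gives the only reading of a *trm4b* single mutant at them. Of these, 2 were lost, 1 reduced and 2 retained, so 60% were lost or reduced, close to the 62.9% over all sites. The lost sites were C49 of Ala(CGC) and Ala(TGC), described above, which in wild type seedlings stood at 80% and 60%. Lys(TTT) C48 was reduced, at 20% in *trm4b-2* against 73% in wild type buds. In *trdmt1 trm4b* seedlings it stood at 22% against 66% in wild type seedlings. Ile(AAT) C48 was retained, at 38% against 49% in buds. It stood at 25% in *trdmt1 trm4b* against 33% in wild type seedlings, so the shares kept were 77.6% in buds and 75.8% in seedlings. Arg(TCG) C48 was retained, at 90% against 81% in buds, and was at 80% in wild type seedlings, with no value in *trm4b-1* or *trdmt1 trm4b*.

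At the 31 sites with values in both alleles, each allele was set against the wild type of its own tissue. The share kept was higher in *trm4b-2* buds than in *trm4b-1* seedlings at 20 sites, lower at 4 and equal at 7. In *trm4b-1* seedlings 25 of 32 sites were lost or reduced (78.1%). Among them were Ser(TGA) C48, which had no *trm4b-2* value, and Glu(TTC) C48, which could not be called in buds. Both were lost in *trm4b-1*. In *trm4b-2* buds 19 of the 30 callable shared sites were lost or reduced (63.3%), so these percentages are not over the same sites. Some calls differed across the cut at 20 points, as at Gly(TCC) C49, with -19 points in buds and -32 in seedlings. At the 12 C49 sites read in both alleles the share was higher in *trm4b-2* at 10, lower at 1 and equal at 1. The median gap over these 12 was 9.48 points. The 8 of them with a number in every library were all higher, by 1.1 to 16.7 points with a median of 13.6 points. Asp(GTC) C49 kept 49.5% in *trm4b-2* and 39.2% in *trm4b-1*, and Glu(TTC) C49 50.5% and 34%. At C50 the shares differed by at most 1.04 points. Beyond C49, Gln(TTG) C48 kept 97.7% in *trm4b-2* and 72.8% in *trm4b-1*, the widest gap of any site, and Gln(CTG) C48 103% and 82.6%.

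Among the 8 tRNAs with a number in every library, the order at C49 was nearly the same in the 2 alleles. Left out of this order, Gln(CTG) stood above Gly(GCC) in both alleles, with shares of 98.9% and 102%. Ala(AGC), Thr(TGT) and Val(CAC), also left out, stood below His(GTG) in both, at 0% to 3.77%. From highest to lowest share kept among the 8, *trm4b-2* had Gly(GCC), Glu(CTC), Gly(TCC), Gly(CCC), Glu(TTC), Asp(GTC), Arg(ACG) and His(GTG). In *trm4b-1* seedlings the order was the same except that Asp(GTC) and Glu(TTC) changed places, and these neighbours differed by 1.04 points in *trm4b-2*. In *trdmt1 trm4b* seedlings, which share that allele and the wild type mean, C49 of Asp(GTC) kept 49.5% and that of Glu(TTC) 44.7%. Over the 8 sites the share was higher in *trm4b-2* than in *trdmt1 trm4b* at 6, lower at 1 and equal at 1. Arg(ACG) was the lower one, at 33.3% in *trm4b-2* and 39.7% in *trdmt1 trm4b*. Allele, tissue and experiment changed together between buds and seedlings and cannot be told apart.

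**Figure D4:**
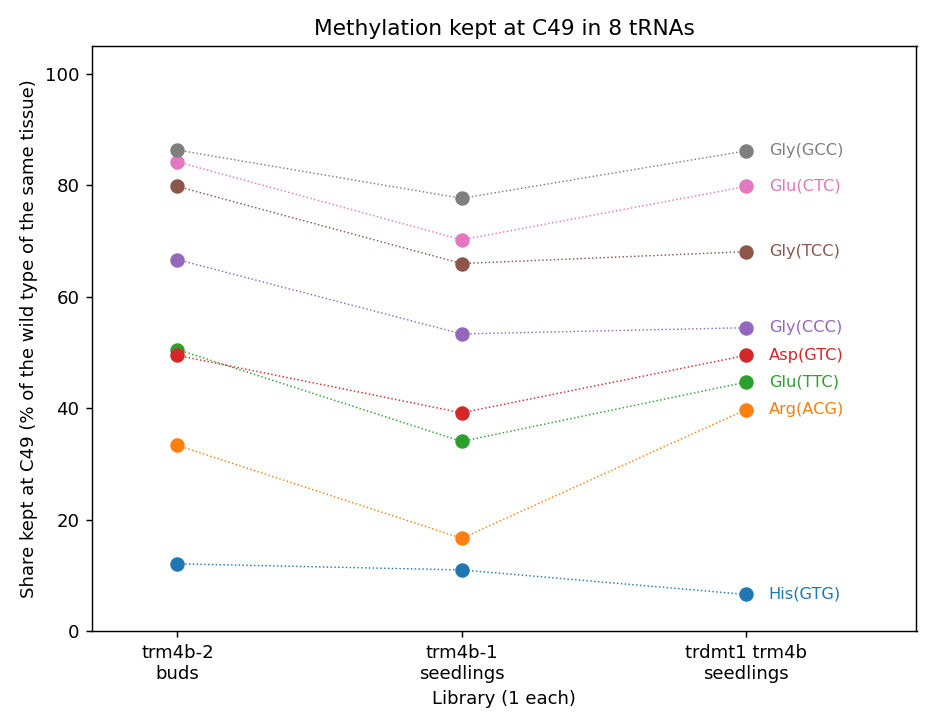
Share kept at C49 (percent of the wild type level of the same tissue, vertical axis) in the 8 tRNAs with a number in every library, for *trm4b-2* buds, *trm4b-1* seedlings and *trdmt1 trm4b* seedlings (1 library each, no error). Dotted lines join the points of a tRNA: of these 8, Gly(GCC) stood highest in each library, at 86.3%, 77.7% and 86.2%, and His(GTG) lowest, at 12.1%, 11% and 6.59%.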

How the data were processed

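Gel-purified tRNA of 11 libraries was bisulfite converted and sequenced on a MiSeq, and the 2 bud libraries were compared here. The authors trimmed and filtered the reads, aligned them with CLC Genomics Workbench, with no version stated, against C-to-T converted tRNA consensus sequences of TAIR10, and deposited methylation as whole percent values (C reads divided by the sum of C and T reads) where coverage reached 5 reads. Replicates were not pooled in buds, and the wild type seedling value was deposited as a mean of 3. Collapsed consensus sequences give 1 level per family, and other bisulfite-resistant cytosines read as m5C. N.D. cells were dropped and 0 columns of values were left unmatched.

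Differences, shares kept and calls were computed per site with Python 3.11.15 (numpy 2.4.6, matplotlib 3.10.9), without tests. Positions 48 to 72 were counted from the 3′ end of the consensus and 38 from the anticodon, and all 39 sites fell on C. Locus types came from RefSeq (TAIR10.1), which matched all 241 loci. Every measured site could be named, and sequences were printed whole for tRNAs with 3 or more sites and otherwise around the T stem. The members and lists were chosen with earlier results of these data known. The code that makes the calls was checked on simulated levels, which says nothing of replicate error. Alternatives were other thresholds, means, the seedling wild type and smaller sets of sites.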

Additional observations from a re-analysis of the deposited data

Results flagged for a closer look

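In 5 of the 31 sites read in both *trm4b* alleles, the level stood above the wild type of its own tissue in 1 allele and below it in the other. This difference was not tested, with 1 library per mutant. As the *trm4b-2* difference in buds minus the *trm4b-1* difference in seedlings it came to 18 points at C48 of Gln(CTG), where *trm4b-2* was 3 points above wild type. It was -3 points at C49 of the same tRNA and -3 points at C48 of Thr(CGT). At C38 it was 4 points in Gly(CCC) and 3 points in Gly(GCC).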

How the results depend on the processing

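Of 79 alternatives, 65 left their result within 1.5 times (counts) or 10 points (medians). Many of these could not move, so the count does not measure stability. C72 had 1 site, C38 and C50 kept the same sites in every smaller set, and another fall threshold cannot change the number lost. The only median difference to change sign was that at C38, which was 1 point, -0.33 as a mean and 0 against wild type seedlings. The 22 lost or reduced sites stayed within 1.5 times under each alternative run. The split of calls moved: with lost at 0% only, 7 sites were lost and 15 reduced (15 and 7 in the report). With a fall of 10 points 11 were reduced, and 4 when reduced meant a share kept below 50%. The C48 median difference of -23 points was -39 as a mean, -70 at sites with a number in every library, -38 at sites of 20% or more in wild type and -46 at sites also read in *trm4b-1* and wild type seedlings. The C48 share kept of 27.4% was 46.2%, 2.78%, 50.9% and 4.8% under those settings. At C49 the sites with a number in every library gave -39.5 points and 58.6%. No paired analysis was possible because each bud group had 1 library. Depth per site was unknown, so counting error could not be given for any level.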
